A study of Mus musculus with 6 samples.

Results

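The genes described here mark colonic crypt stem cells or are switched on by Wnt signaling, and they were followed in crypts with and without GSK503. They were chosen by name, as *Lgr5*, *Ascl2*, *Smoc2*, *Axin2*, *Rnf43*, *Znrf3*, *Lgr4*, *Lrig1*, *Cd44* and *Nkd1*, and all 10 were found among the 18049 genes of the deposited table. The libraries hold total RNA of colonic crypts from 6 mice of a colorectal tumor model, 3 of them controls and 3 treated with GSK503, and each animal gave 1 library. Both groups carried a *Villin-Cre* transgene on a C57BL/6J background and a humanized knockin of *TgfβRII* with a poly(A) microsatellite repeat, and both were fed a Western-style diet. *Villin-Cre* acts in the intestinal epithelium and not in the stroma or immune cells around it. The treated mice received GSK503, an inhibitor of the histone methyltransferase EZH2, by tail vein at 200 μg/kg in 50 μl, with 2 injections per week. The control mice were injected with 20% captisol, a solubilizing vehicle, in PBS. The age of each mouse is not given in the labels.

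Wnt ligands bind Frizzled receptors and LRP coreceptors at the crypt base, which stops the destruction of β-catenin and lets it act with TCF/LEF factors on target genes. R-spondins strengthen the signal by binding LGR receptors and clearing the ubiquitin ligases RNF43 and ZNRF3, which otherwise remove Frizzled from the cell surface. Several target genes, such as *Axin2*, *Rnf43*, *Znrf3* and *Nkd1*, encode inhibitors of the same pathway and give it negative feedback, while *Lgr5* and *Ascl2* are confined largely to the stem cells.

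The values are CPM of the TMM-scaled library, called scaled CPM here. The estimated totals of the 6 libraries lay between 108162848 and 135085027 counts, and 3 counts were worth between 0.0228 and 0.0271 scaled CPM, a floor that covers counting error only. Each log2FC is the GSK503 minus the control mean of log2(value + 0.1), fitted by limma over the 16670 genes with at least 0.1 in at least 3 libraries, and it understates the change of low genes. All 10 genes passed this filter. *Xist*, the RNA of the inactive X chromosome, had 0.419, 0.805 and 0.936 scaled CPM in the control libraries and 1236, 825 and 982 in the treated ones, and Y-linked *Uty* had between 42.5 and 53.7 against between 0.67 and 1.08. Treatment and the sex chromosomes of the mice cannot be told apart in any difference below. The crypt label was checked against epithelial markers, whose summed level was between 12000 and 13480 in control and between 12990 and 15120 in treated libraries. Smooth muscle markers summed to 21.4, 91.4 and 47.2 in the controls, against 4.56, 4.26 and 123.4 after GSK503, so GSK503-treated mouse 3 stood apart from the other two in its stromal RNA.

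The stretches before the start sites are shown for the pair of R-spondin receptors and for the feedback inhibitors whose promoters held the TCF/LEF core motif. A search of the 250 bases before and the 50 bases after the GENCODE canonical start (GRCm39) for CTTTGAT or CTTTGAA, on both strands, found a match in 2 of the 10 promoters and none in the other 8. In *Axin2* the match was CTTTGAA, starting 22 bases before the start, and in *Nkd1* it was CTTTGAT, starting 26 bases before it. The same search matched 8.48% of 21757 protein-coding promoters and 6.75% of the 14688 belonging to tested genes, and no binding was measured. The printed *Axin2* stretch is chr11:108811596-108811625 (+) and the *Nkd1* stretch is chr8:89247879-89247908 (+), of which 19 bases belong to the first exon of another *Nkd1* transcript. The *Lgr5* stretch is chr10:115423686-115423785 (-) and the *Lgr4* stretch chr2:109747739-109747838 (+), each the 100 bases before the start, with no exon in them. Capitals mark the motif.
Lgr5: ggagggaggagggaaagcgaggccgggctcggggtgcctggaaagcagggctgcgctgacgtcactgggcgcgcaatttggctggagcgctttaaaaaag
Lgr4: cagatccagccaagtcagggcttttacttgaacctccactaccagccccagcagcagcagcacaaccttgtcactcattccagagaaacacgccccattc
Axin2: accgtgcgctcggctcgcgcCTTTGAAgtg
Nkd1: ccccgccgcgtccgcctcgcCTTTGATggg

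None of the 10 genes differed between the groups at an adjusted p below 0.05 in limma with Benjamini-Hochberg adjustment, where 0.642% of all tested genes did, and limma-voom on the recovered counts also called 0 of the 10. *Lgr4* was the only gene of the 10 with an unadjusted p below 0.05, a share close to the 13.3% of all tested genes. The 3 treated mice lay below the 3 control mice for *Lgr4* and *Znrf3* (9.22% of all tested genes) and above them for *Nkd1* (9.84% of all tested genes), and the groups overlapped for the other 7. A positive log2FC was found for 3 of the 10 genes, against 48.9% of all tested genes, and their median log2FC was -0.09 against -0.01 over all genes. The 95% confidence interval lay within 0.5 of zero on the log2 scale for 5 of the 10 genes and within 1 for all 10. The smallest p that an exact permutation of 3 against 3 mice allows is 0.1 (two-sided). Without control mouse 1, control mouse 2 or treated mouse 1, 2 of the 10 genes had an unadjusted p below 0.05. Without treated mouse 1, 5 were separate between the groups, and without treated mouse 2, 6 had a positive log2FC. The shares of all tested genes for these 3 measures were not counted with a mouse left out, and groups of fewer mice separate more easily. In these bulk libraries, fewer cells of a type and less RNA per cell cannot be told apart.

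**Figure D1:**
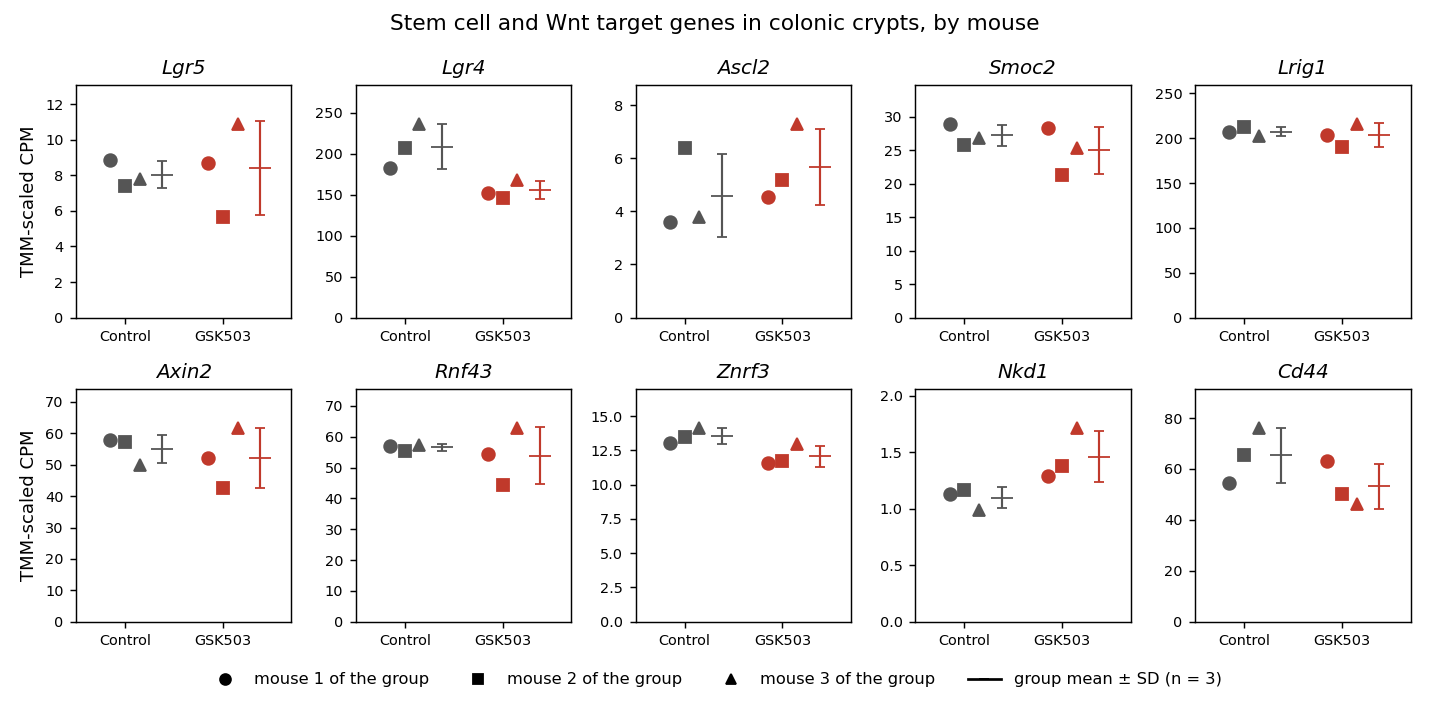
Level of each gene in scaled CPM (linear axes from 0) in the 3 control and 3 GSK503-treated mice, with the group mean and SD beside the points. The groups are separate for *Lgr4*, *Znrf3* and *Nkd1* and overlap for the other 7 genes.

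*Lgr5* (ENSMUSG00000020140, chr10:115286216-115423685), the receptor that defines the crypt base stem cell, had 8.88, 7.41 and 7.82 scaled CPM in the controls (mice 1 to 3 in order, as for every gene here), against 8.70, 5.64 and 10.9 after GSK503. The treated mice held both the lowest and the highest value of the 6. Its level was 8.04 ± 0.757 (SD, n = 3) in control and 8.42 ± 2.65 in treated mice, which gave a log2FC of 0.02 (95% confidence interval -0.48 to 0.52, limma adjusted p = 0.981). The coefficient of variation was 9.42% in control and 31.4% in treated mice. Between 708 and 1311 estimated counts stood behind each value. The sign of this small difference depended on single mice: without treated mouse 3 the log2FC was -0.19, without control mouse 2 it was -0.036 and without treated mouse 1 it was -0.029.

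*Lgr4* (ENSMUSG00000050199, chr2:109747839-109844609), a broadly expressed R-spondin receptor of the same family, had 182, 207 and 237 scaled CPM in the controls, against 152, 146 and 167 after GSK503. The groups were separate, with the highest treated value under the lowest control value. The level was 209 ± 27.2 (SD, n = 3) in control and 155 ± 10.8 in treated mice, a fold of 0.748 (95% confidence interval 0.639 to 0.876). The log2FC of -0.42 (standard error 0.10) had an unadjusted p of 0.00232 and an adjusted p of 0.106 in limma, and 362 genes had a smaller p. When the values were scaled by library size only, the log2FC was -0.53 (limma adjusted p = 0.0463), while the median of all genes moved to -0.12. That scaling called 178 of all tested genes lower and 82 higher, against 24 and 83 in the main fit. The ratio of *Lgr4* to *Lgr5* was 20.5, 27.9 and 30.3 in the controls, against 17.5, 26.0 and 15.3 after GSK503, and the groups overlapped (p = 0.2, exact permutation, two-sided).

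*Ascl2* (ENSMUSG00000009248, chr7:142520564-142523006), the transcription factor that holds crypt base cells in the stem cell state, had 3.60, 6.40 and 3.79 scaled CPM in the controls, against 4.55, 5.19 and 7.31 after GSK503. Control mouse 2 lay above treated mice 1 and 2, so the groups overlapped. The log2FC was 0.32 with an interval from -0.27 to 0.91 (limma adjusted p = 0.645), and it was 0.13 without treated mouse 3 and 0.58 without control mouse 2. *Smoc2* (ENSMUSG00000023886, chr17:14499735-14625074), a secreted matrix protein enriched in *Lgr5*-expressing stem cells, had 29.0, 25.8 and 26.9 in the controls, against 28.3, 21.3 and 25.3 after GSK503. Treated mouse 1 lay within the control values and treated mice 2 and 3 below them, and the log2FC was -0.13 (-0.39 to 0.13, limma adjusted p = 0.67). *Lrig1* (ENSMUSG00000030029, chr6:94581510-94677242), a membrane protein that restrains ErbB receptors and marks crypt progenitors, had 207, 213 and 202 in the controls, against 204, 190 and 216 after GSK503. It had the narrowest interval of the 10, with a log2FC of -0.03 (-0.19 to 0.14, limma adjusted p = 0.908).

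Among the feedback inhibitors, *Axin2* (ENSMUSG00000000142, chr11:108811169-108841609), a scaffold of the β-catenin destruction complex, had 58.0, 57.2 and 49.8 scaled CPM in the controls, against 52.3, 42.7 and 61.7 after GSK503. Treated mouse 2 was the lowest of the 6 and treated mouse 3 the highest, and the log2FC was -0.09 (-0.38 to 0.20, limma adjusted p = 0.825). *Rnf43* (ENSMUSG00000034177, chr11:87553548-87626377), a ubiquitin ligase that removes Frizzled, had 56.9, 55.3 and 57.4 in the controls, against 54.3, 44.4 and 62.9 after GSK503. The control mice agreed closely, with a coefficient of variation of 1.94% against 17.2% in the treated mice, and the log2FC was -0.08 (-0.35 to 0.18, limma adjusted p = 0.808). The ratio of *Rnf43* to *Axin2* was 0.981, 0.968 and 1.15 in the controls, against 1.04, 1.04 and 1.02 after GSK503 (p = 1, exact permutation, two-sided).

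*Znrf3* (ENSMUSG00000041961, chr11:5226324-5394939), the paralog of *Rnf43*, had 13.0, 13.5 and 14.1 scaled CPM in the controls, against 11.6, 11.7 and 13.0 after GSK503. The highest treated value, 12.97, lay just under the lowest control value, 13.03, and with median-of-ratios scaling the groups overlapped. Its log2FC was -0.17 (-0.42 to 0.08, limma adjusted p = 0.565). The ratio of *Rnf43* to *Znrf3* overlapped between the groups (p = 0.5, exact permutation, two-sided). *Nkd1* (ENSMUSG00000031661, chr8:89247890-89324577), which binds Dishevelled, had 1.13, 1.17 and 0.991 in the controls, against 1.29, 1.38 and 1.71 after GSK503. The groups were separate, with the treated mice above the controls, yet the log2FC of 0.38 had an interval from -0.23 to 0.98 (limma adjusted p = 0.594). It was the lowest of the 10, with between 126 and 206 estimated counts per library. The 4 feedback inhibitors therefore gave 3 negative log2FC values and 1 positive one, none past the threshold.

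*Cd44* (ENSMUSG00000005087, chr2:102641486-102732010), a hyaluronan receptor and Wnt target that is also made by immune and stromal cells, had 54.5, 65.6 and 76.1 scaled CPM in the controls, against 63.2, 50.2 and 46.2 after GSK503. Treated mouse 1 lay above control mouse 1, and treated mice 2 and 3 lay below all control mice. The log2FC was -0.30 (-0.62 to 0.02), with an unadjusted p of 0.0656 and an adjusted p of 0.417 in limma. Macrophage markers summed to 27.1, 47.0 and 27.5 in the controls, against 10.1, 6.19 and 65.0 after GSK503. All 7 had a negative log2FC, where 48.9% of all tested genes had a positive one, and none was past an adjusted p of 0.05. B cell markers summed to 9.75, 26.4 and 3.77 in the controls, against 2.82, 1.11 and 3.52 after GSK503, with all 5 at a negative log2FC. Of these, 4 had an unadjusted p below 0.05, against 13.3% of all tested genes, and none was past an adjusted p of 0.05. *Cd44* was lowest in treated mouse 3, the mouse with the highest macrophage sum, and the part of immune cells in its value was not tested.

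**Figure D2:**
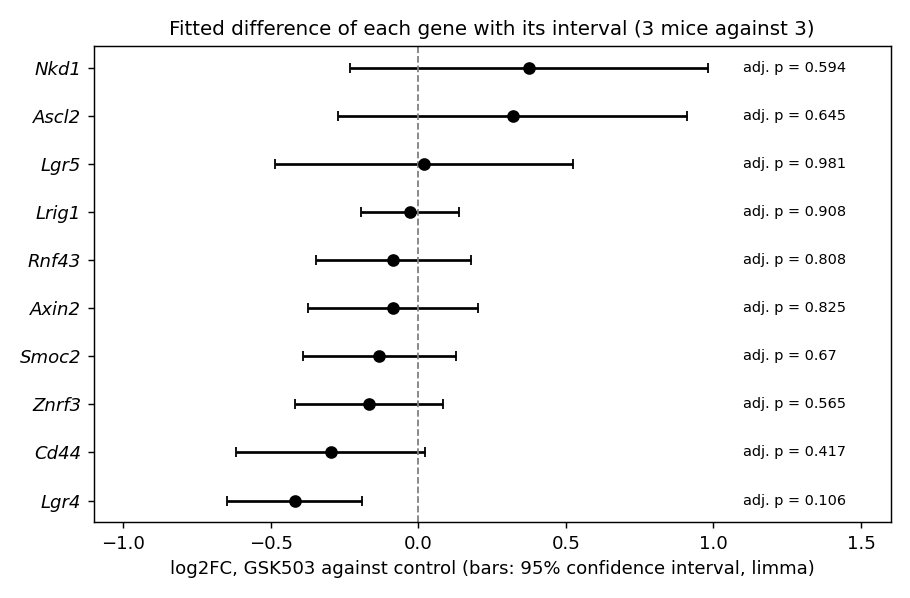
Fitted log2FC (GSK503 against control) of the 10 genes with the 95% confidence interval from limma, ordered by size, and the adjusted p at the right. Only the interval of *Lgr4*, from -0.65 to -0.19, leaves out zero.

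Levels of different genes were compared per kilobase of exon, using the union of annotated exons. In the control mice *Lrig1* had the highest level, 32.7 ± 0.803 scaled CPM per kb (SD, n = 3), followed by *Lgr4* with 28.0 ± 3.66. *Cd44* (9.65 ± 1.59), *Rnf43* (8.61 ± 0.167) and *Axin2* (7.93 ± 0.653) came next, and the ranges of *Cd44* and *Rnf43* overlapped. *Smoc2* (2.93 ± 0.171) and *Ascl2* (2.82 ± 0.958) also overlapped, and *Znrf3* stood at 1.69 ± 0.0693. The stem cell receptor *Lgr5* had 0.783 ± 0.0737 scaled CPM per kb, and *Nkd1* was last at 0.133 ± 0.0113. All other neighbours in this order were separate across the 3 control mice. Per kb of the longest transcript, *Rnf43* stood before *Cd44*, and *Lrig1* and *Lgr4* were close at 40.2 and 39.8. By that length *Smoc2* (6.13 ± 0.359) was above *Ascl2* (2.85 ± 0.968), and *Lgr5* had 1.68 ± 0.158 scaled CPM per kb, so these levels depend on the length used.

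The mice varied together for several of these genes. GSK503-treated mouse 2 had the lowest value of the 6 for 6 of the 10 genes, where it was lowest for 15.1% of all tested genes, and treated mouse 3 had the highest for 6 of the 10, where it was highest for 17.1% of all. Both held at once for *Lgr5*, *Axin2*, *Rnf43* and *Lrig1*, and for 3.08% of all tested genes. The median deviation from the gene mean over the 10 genes was -0.25 in treated mouse 2 and 0.14 in treated mouse 3 on the log2 scale, against -0.01 in treated mouse 1 and between 0.01 and 0.07 in the control mice. The other genes did not share this order in full. Control mouse 3 was highest for *Lgr4*, *Znrf3* and *Cd44*, and control mouse 1 for *Smoc2*, though treated mouse 2 was lowest for *Lgr4* and *Smoc2*. *Ascl2* and *Nkd1* were highest in treated mouse 3 but lowest in a control mouse. Without treated mouse 2, the log2FC was 0.050 for *Axin2*, 0.048 for *Rnf43* and 0.019 for *Lrig1*, all opposite in sign to the values above. This order was seen in the data and has no test. Treated mouse 3 was also the mouse with the highest smooth muscle, fibroblast and macrophage sums, while treated mouse 2 had the lowest smooth muscle (4.26) and macrophage (6.19) sums. Treated mouse 1 had 4.56 and 10.1 for these sums, though its median deviation was -0.01. The part of stromal and immune RNA in this order was not tested. Fibroblast markers summed to between 60.2 and 77.1 in the controls and to 25.1, 33.8 and 112.8 after GSK503. *Lmod1*, *Lum* and *Cd79a* were the only stromal or immune markers at 0 in any library.

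**Figure D3:**
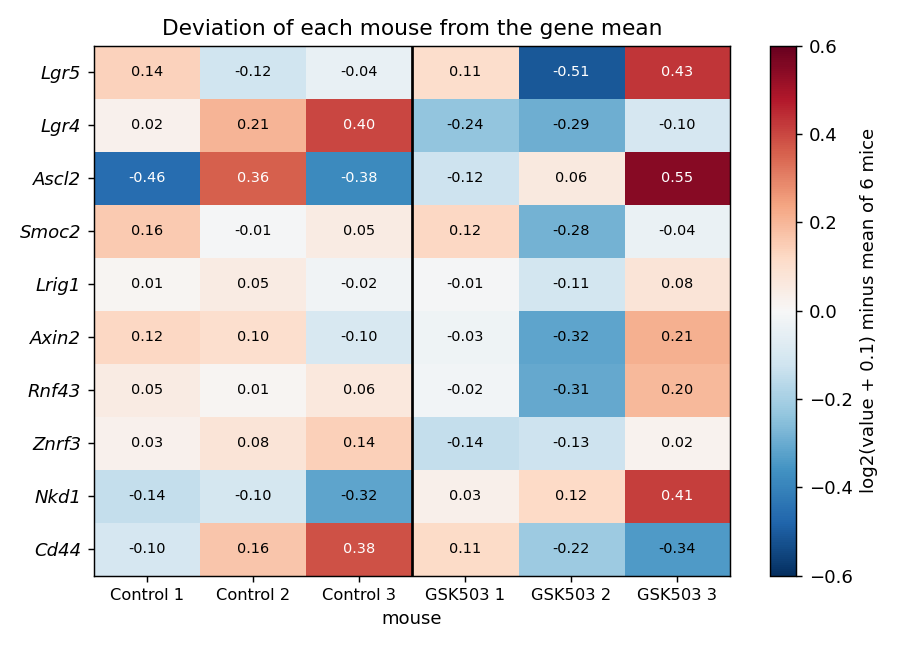
Deviation of each mouse from the mean of the 6 mice, as log2(value + 0.1), for the 10 genes (rows) and the mice (columns, with the control mice left of the line); blue is below and red above the mean. GSK503-treated mouse 2 is mostly below the mean, with -0.51 for *Lgr5*, and treated mouse 3 mostly above it, with 0.43 for *Lgr5*.

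The other genes of the pathway were taken from lists by role. Of 102 genes listed, 91 were in the table and 86 passed the filter, and none passed an adjusted p of 0.05. An unadjusted p below 0.05 was found for 4 genes that were higher and 8 that were lower after GSK503, or 14.0% of the 86. The treated mice lay above the control mice without overlap for 7 genes (8.14%) and below them for 9 (10.5%), close to the shares over all genes, and the median log2FC was -0.04. The smallest adjusted p belonged to *Fzd3*, a Frizzled receptor, which had 16.8, 24.4 and 27.9 scaled CPM in the controls, against 13.7, 12.8 and 10.8 after GSK503. Its log2FC was -0.86 (-1.27 to -0.45, limma adjusted p = 0.0753), and it was past the threshold without control mouse 1 (log2FC -1.07, limma adjusted p = 0.0165).

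Among the 15 receptors and coreceptors, *Fzd3*, *Lrp6* and *Fzd5* had an unadjusted p below 0.05, all with lower means in treated mice, against 13.3% of all tested genes. A positive log2FC was found for 5 of the 15, against 48.9% of all tested genes. The coreceptor *Lrp6* had 288 ± 38.7 (SD, n = 3) in control and 237 ± 7.93 in treated mice, a log2FC of -0.28 (limma adjusted p = 0.267). Of 9 ligand and secretion genes, *Wnt5a*, a ligand of β-catenin-independent signaling made largely by stroma, had 3.52, 4.73 and 4.15 in the controls, against 2.25, 2.64 and 2.18 after GSK503, a log2FC of -0.78 (limma adjusted p = 0.142). Treated mouse 3, which had the highest fibroblast and smooth muscle sums, had the lowest *Wnt5a* value of all mice. How far stromal RNA took part in the *Wnt5a* difference was not tested. *Wnt3* was under the filter and *Rspo3* was not among the genes of the deposited table. Of 7 secreted inhibitors none had an unadjusted p below 0.05. *Sfrp1*, which binds Wnt ligands, had 1.91, 3.46 and 2.31 in the controls, against 0.653, 0.502 and 3.55 after GSK503. It was past the threshold only without treated mouse 3 (log2FC -1.94, limma adjusted p = 0.0348). That fit called 104 of all tested genes lower and 125 higher, against 24 and 83 with all mice. The highest *Sfrp1* value was that of treated mouse 3, which had the highest fibroblast and smooth muscle sums. The part of stromal RNA in the *Sfrp1* values was not tested.

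In the destruction complex, the tankyrase gene *Tnks*, whose product marks Axin for degradation, had a log2FC of -0.33 (limma adjusted p = 0.246). *Apc*, the scaffold that is the classic colorectal tumor suppressor, had 182 ± 20.0 (SD, n = 3) in control and 153 ± 8.34 in treated mice, a log2FC of -0.24 (limma adjusted p = 0.291), with no overlap of the groups. *Ctnnb1*, which encodes β-catenin, had 779, 779 and 784 in the controls, against 778, 810 and 747 after GSK503, and the log2FC was 0.00 with an interval from -0.19 to 0.18. Its partner *Bcl9* had a log2FC of -0.28 (limma adjusted p = 0.289).

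Among the other Wnt target genes, *Myc*, the transcription factor of cell growth, had a log2FC of 0.02 (-0.17 to 0.20, limma adjusted p = 0.958). *Sox9*, a factor of stem and progenitor cells, had 38.9 ± 4.12 (SD, n = 3) in control and 32.6 ± 4.89 in treated mice, with a log2FC of -0.26 (-0.54 to 0.01, limma adjusted p = 0.404). The receptor *Ephb2*, which positions cells along the crypt, had a log2FC of -0.11 (limma adjusted p = 0.577). Of the other stem cell genes, *Msi1*, an RNA-binding protein, had 0.502, 0.0724 and 0.299 in the controls, against 1.01, 1.24 and 0.549 after GSK503. The lowest treated value was above the highest control value, but the interval of its log2FC of 1.52 ran from 0.35 to 2.68 at this low level (limma adjusted p = 0.247). With a pseudocount of 0.5 it was 0.86, with a pseudocount of 1 it was 0.58, and limma-voom gave 1.90. *Hopx*, a homeodomain protein of reserve stem cells and of differentiated epithelium, gave 0.33 as its log2FC (limma adjusted p = 0.269), and the ion cotransporter *Slc12a2* one of -0.23 (limma adjusted p = 0.245).

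**Figure D4:**
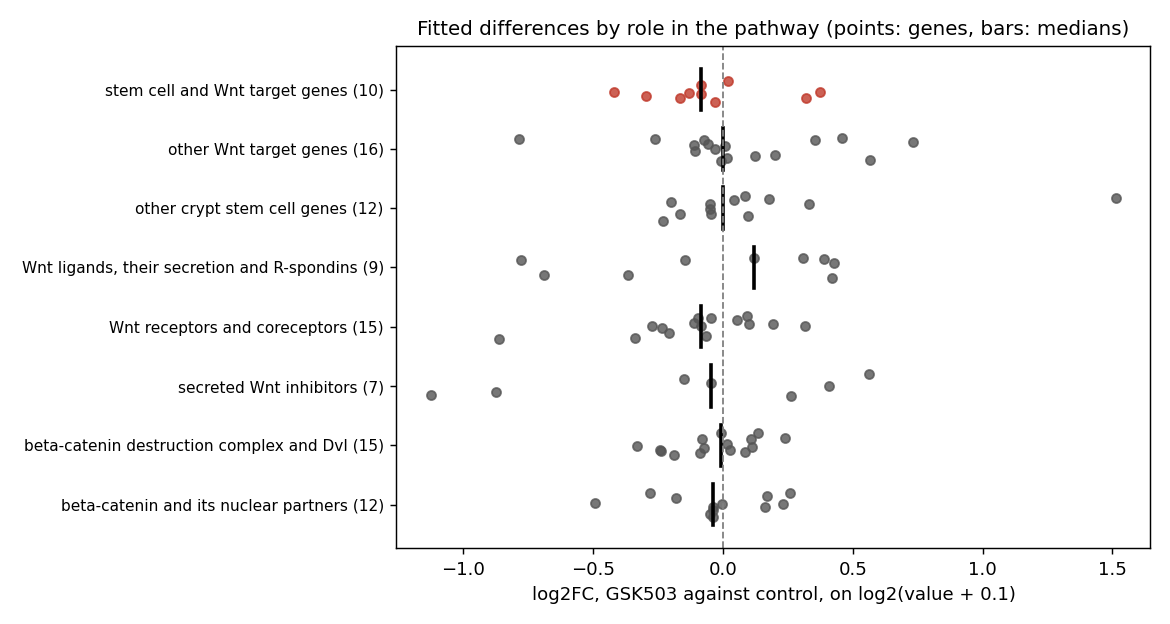
Fitted log2FC of each tested gene (points, with random vertical shift) by role in the pathway, with the number of tested genes in brackets and the median of each list as a bar; the 10 stem cell and Wnt target genes are in red. The list medians lie between -0.09 and 0.12, and *Msi1* stands at 1.52 on this scale, a value that depends on the pseudocount.

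The lists of other crypt cells were read beside these values. All 7 goblet cell markers were higher without overlap after GSK503, against 9.84% of all tested genes. Of the 7, 3 were past an adjusted p of 0.05, against 0.642% of all tested genes in either direction. The goblet sum was between 10220 and 18400 in control and between 31440 and 50000 in treated mice. *Clca1*, a secreted goblet cell protein, rose from 4864 to 23930 on average (limma adjusted p = 0.0294). Of 6 enteroendocrine markers, 3 fell past an adjusted p of 0.05, against the same 0.642% of all tested genes. The sum of the 6 was between 198.9 and 247.5 in control and between 125.2 and 159.9 in treated mice. Of 10 proliferation markers none passed, 5 had a positive and 5 a negative log2FC, and their median was -0.01. The lowest log2FC among them belonged to *Mki67*, present in cycling cells, at -0.39 (limma adjusted p = 0.136). It had 707 ± 61.1 in control and 538 ± 54.0 in treated mice (SD, n = 3). It alone of the 10 markers had an unadjusted p below 0.05 (0.00391, limma), against 13.3% of all tested genes. The treated mice lay below the control mice for *Mki67* and *Top2a* (9.22% of all tested genes), and the groups overlapped for the other proliferation markers. The goblet markers and *Lgr4* both separated the groups, so their opposite directions only restate the treatment label. Among the treated mice, mouse 3 had the highest goblet sum (50000) and also the highest *Lgr4* value (167). The part of cell composition in the *Lgr4* difference was not tested. The gene spans of 9 of the 10 stem cell and Wnt target genes overlap another annotated gene, 5 of them on the same strand, and *Ascl2* has no such overlap. The library kit keeps strand, but the strand setting of the counting is not given in the sources used here, so reads of overlapping genes could have been split.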

How the data were processed

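Total RNA-Seq of the crypts of 6 mice was used, grouped by the sample labels. An allele that both groups carried is not reported here. Per the submitters' processing notes and the study's methods, the authors aligned reads to GRCm39 with STAR, estimated counts with RSEM and scaled them by TMM in edgeR, which makes the deposited signal a TMM-scaled CPM. A gene filter before deposit is not stated in the sources used here. A common step was searched for in the low values of each library, with a tolerance of 0.004 of a step. In every library 99.9% of low values were whole multiples of 0.01 of the step found, which gave the estimated totals.

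The values are scaled, so a count test was replaced by limma 3.58.1 in R 4.3.3, with lmFit and eBayes and an intensity trend on log2(value + 0.1). Genes with at least 0.1 in at least 3 libraries were kept (92.4% of the table), and p-values were adjusted by Benjamini-Hochberg over all of them. The fit was tested on simulated data with an assumed spread. There it called 66 of 100 genes changed by 1 on the log2 scale and 100 of 100 changed by 2. It also called 12 unchanged genes. Exact permutation tests were run on each of the 10 genes and on 4 ratios, and the ratios were chosen after the values were seen. The ratio of *Lgr4* to *Axin2*, not given above, overlapped between the groups (p = 0.2, exact permutation, two-sided). The 10 genes and all lists were chosen with earlier results of these data known. Named genes are the 10, the 8 other pathway genes with the smallest p, and *Ctnnb1*, *Apc*, *Myc*, *Sox9*, *Ephb2*, *Rspo3* and *Wnt3*, with *Xist*, *Uty* and genes of marker lists that moved beside a member. *Fzd5* and *Sfrp1* were named after their values were seen.

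Symbols were matched to GENCODE M39 (95.8% found), which also gave positions, exon lengths and motif windows. The printed stretches were set after the matches were seen. No libraries held identical values. Alternatives were other pseudocounts, filters and scalings, no trend, robust empirical Bayes, limma-voom on recovered counts, a replicate block and leaving out each mouse. Python 3.11.15, numpy 2.4.6, pandas 2.3.3 and matplotlib 3.10.9 were used.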

Additional observations from a re-analysis of the deposited data

How the results depend on the processing

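Across 16 alternatives, each member's log2FC kept its sign and its side of the adjusted threshold except as follows. With library size alone as the scaling, which moved the median of all genes to -0.12, 1 of the 10 genes passed an adjusted p of 0.05 (*Lgr4*, -0.53), 3 had an unadjusted p below 0.05, and 1 of the other pathway genes passed (*Fzd3*, -0.97, limma adjusted p = 0.0408). This scaling called 178 of all tested genes lower and 82 higher, against 24 and 83 in the main fit. The share of all tested genes with an unadjusted p below 0.05 was counted in the main fit only. Under library size alone *Lgr5* was at -0.093 and *Myc* at -0.10. With median-of-ratios scaling 2 of the 10 were separate between the groups, since *Znrf3* overlapped. Without the intensity trend 2 of the 10 had an unadjusted p below 0.05. Leaving out each mouse in turn, between 1 and 2 of the 10 had an unadjusted p below 0.05, between 3 and 5 did not overlap between groups (5 without treated mouse 1), between 2 and 6 had a positive log2FC (6 without treated mouse 2), and between 0 and 1 of the other pathway genes passed (*Fzd3* without control mouse 1, *Sfrp1* without treated mouse 3). Over all 16670 tested genes, 94 were called higher and 18 lower without control mouse 1, and 125 and 104 without treated mouse 3. The main fit called 83 higher and 24 lower. The shares with an unadjusted p below 0.05, separate groups or a positive log2FC were not counted over all genes with a mouse left out. Smaller groups separate more easily. Over the fits with a mouse left out, the lowest and highest log2FC were -0.19 and 0.28 for *Lgr5*, -0.21 and 0.050 for *Axin2*, -0.20 and 0.048 for *Rnf43*, -0.074 and 0.019 for *Lrig1*, 0.13 and 0.58 for *Ascl2*, -0.23 and -0.023 for *Smoc2*, -0.43 and -0.18 for *Cd44*, 0.26 and 0.45 for *Nkd1*, -0.22 and -0.14 for *Znrf3*, -0.034 and 0.024 for *Ctnnb1* and -0.014 and 0.067 for *Myc*. *Lgr4* stayed negative in these fits, between -0.51 and -0.32, with a limma adjusted p between 0.0738 and 0.398. The cause of these shifts was not tested. Same-numbered mice did not deviate together (r = 0.03, -0.13 and -0.12), and with the replicate number as a block 0 of the 10 genes passed and 33 genes were called in all, 23 higher and 10 lower, against 107. Overlap between groups was not counted under limma-voom, and *Msi1* was not tested under the stricter filter. Among the 10 genes the confidence intervals were widest for *Nkd1* and *Ascl2*.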
